A study of Mus musculus with 3 samples.

Results

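The genes described here encode the structural extracellular matrix of the artery wall: collagens, elastic fibre proteins, matrix proteoglycans, adhesive glycoproteins and 2 crosslinking enzymes. They were given as a list of 40 gene symbols, all of which matched 1 entry among the 32285 genes measured, and all were detected in each library. By role the list holds 5 fibrillar collagens, 9 basement membrane genes, 5 other collagens, 8 elastic fibre genes, 2 crosslinking enzymes, 6 small leucine-rich proteoglycans and 5 glycoproteins. Levels were read from single-cell RNA of aortic intima, the layer next to the blood, dissected where the arch curves inward. Every library came from wildtype C57BL/6J animals, both sexes together, at an age of 12 to 13 weeks, with 5 to 10 mice pooled in each. Untreated control mice gave 2 libraries. Mice injected intravenously with 30 µg of ultrapure lipopolysaccharide (LPS), a bacterial cell wall product, 18 h before harvest gave 1 library. All tissue went through actinomycin D, which blocks transcription, and through a digest with collagenase D and DNase I, and collagenase cuts collagen protein, not RNA.

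Fibrillar collagens form the tensile fibres of the outer and middle artery wall, and elastic fibres, made of elastin on a fibrillin scaffold, give it recoil. Basement membranes are thin sheets of type IV collagen, laminin, nidogen and perlecan under the endothelium and around smooth muscle cells. Small leucine-rich proteoglycans bind collagen fibrils and set their spacing, and lysyl oxidases crosslink both collagen and elastin.

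Lists of 3 values below follow the order control replicate 1, control replicate 2, LPS. Libraries differed in size and quality: 1269, 4813 and 6000 barcodes held 4940996, 20069697 and 21864072 UMIs (molecular identifiers that count each captured RNA once). Of the LPS barcodes, 3659 had at least 40% of their UMIs on Gm42418, a gene that overlaps ribosomal RNA, and were set aside, against 28 and 0 in the controls. Any pair of libraries shared 1 to 6 barcode sequences. Cells were classed by counts of marker genes, none of them among the 40, and the class names below mean no more than passing such a gate. Fibroblast-gated cells numbered 21, 79 and 85, endothelial-gated cells 29, 93 and 146, mononuclear phagocyte-gated cells 56, 177 and 140, and lymphoid-gated cells (T cells, NK cells or other innate lymphocytes) 151, 1661 and 69. Mural-gated cells (smooth muscle cells and pericytes) numbered 24, 97 and 7, too few in the LPS library for a test. With Gm42418-rich barcodes kept, the LPS library held 281 mural-gated and 150 fibroblast-gated cells. The LPS barcodes set aside held 32815 of the 76031 UMIs of the 40 genes in that library, so the classes below leave out much of its matrix RNA. Levels are UMIs per 10,000 UMIs of the class.

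The matrix genes took the largest share of UMIs in fibroblast-gated cells, at 5.28%, 4.63% and 3.11% of class UMIs. In endothelial-gated cells they took 1.04%, 1.38% and 0.71%, and in mural-gated cells 1.06%, 1.80% and 1.54%. Lymphoid-gated cells, which should make little matrix, held 0.0259%, 0.337% and 0.0934%, taken here as a measure of free RNA caught in every droplet. By this share, control replicate 2 held the most free matrix RNA of the 3 libraries and control replicate 1 the least. Haemoglobin-rich (erythroid-gated) barcodes, which also should make little, held larger shares: 0.267%, 1.80% and 0.898%, with haemoglobin left out of the total. As counts, these were 4, 5713 and 4211 matrix UMIs over 2, 353 and 751 erythroid-gated barcodes. Lymphoid-gated cells held 244, 29190 and 379 over 151, 1661 and 69 cells. Median depth in control replicate 2 was 4161 UMIs in lymphoid-gated, 1839 in fibroblast-gated and 2147 in phagocyte-gated cells. The lymphoid-gated share may thus understate free RNA in shallower classes, which was not tested. The share in phagocyte-gated cells was 5.88, 1.72 and 1.96 times that in lymphoid-gated cells of the same library, so little of it stood above free RNA in control replicate 2 and the LPS library. In fibroblast-gated cells the same ratio was 204, 13.8 and 33.3, and in endothelial-gated cells 40.1, 4.09 and 7.60. Summed mural markers, the other matrix-making class, reached 15.8, 68.5 and 9.05 per 10,000 UMIs in fibroblast-gated cells and 4.69, 42.7 and 7.46 in endothelial-gated cells. Their part in the results below was not tested, apart from the alternatives in which the lymphoid-gated level was subtracted.

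**Figure D1:**
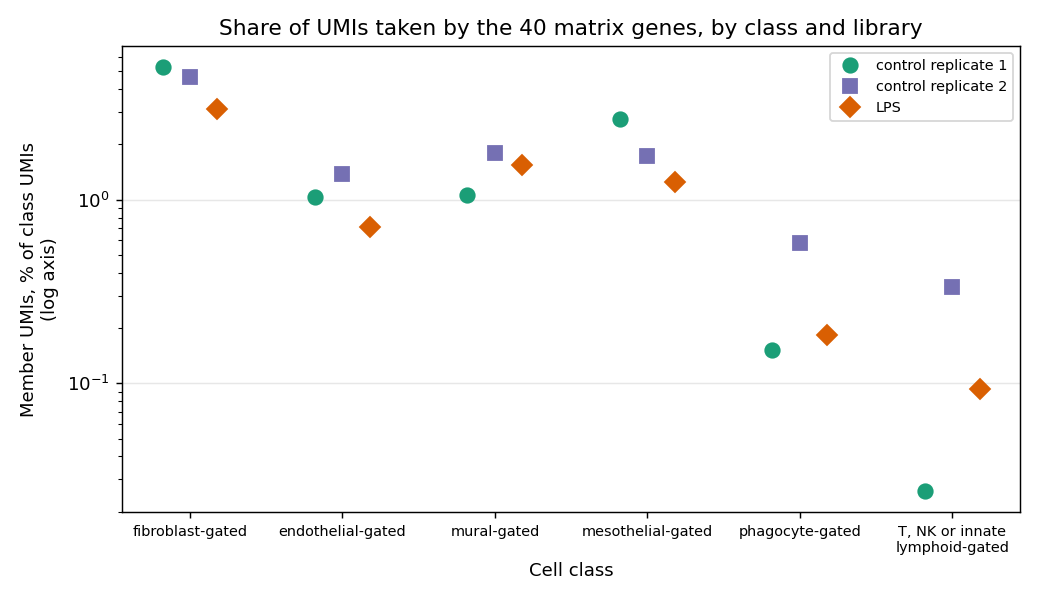
Share of class UMIs (%, log axis) taken by the 40 matrix genes in each cell class, 1 point per library. Fibroblast-gated cells lie highest, from 3.11% to 5.28%, and lymphoid-gated cells, which mark free RNA, lie lowest with control replicate 2 above the other libraries.

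Across all 3 libraries, most matrix genes were higher in fibroblast-gated than in endothelial-gated cells, while elastin, Emilin1, perlecan and Col8a1 were higher in endothelial-gated cells. With library as a block, 32 of the 39 members tested differed, against 19.6% of all genes (edgeR's quasi-likelihood test, adjusted p under 0.05). Of these, 28 were higher in fibroblast-gated cells, against 9.76% of all genes, and 4 were lower, against 9.89%. The median log2 difference was 2.18 over the members and 0.03 over all genes tested. Of the 5 fibrillar collagens, 4 were higher in fibroblast-gated cells: Col3a1, the chain of type III collagen, was higher by 5.64 ± 0.39 (log2 ± SE, adjusted p = 5.35e-12), Col1a1 and Col1a2, the 2 chains of type I collagen, by 5.19 ± 0.34 and 4.11 ± 0.25, and Col5a1 by 1.25 ± 0.40. Fbln1, a fibulin of elastic fibres and basement membranes, showed the largest fitted difference of the list at 7.49 ± 0.39. Tnxb, or tenascin X, differed by 6.23 ± 0.46, Ogn, the proteoglycan osteoglycin, by 5.97 ± 0.44 and Lama2, the laminin α2 chain, by 5.42 ± 0.55. Endothelial-gated cells held 1, 3 and 8 UMIs of Fbln1, 0, 9 and 4 of Tnxb and 0, 4 and 1 of Lama2. Such low counts leave the sizes and order of these differences uncertain. The endothelial-gated side held Eln, which encodes elastin, at -1.73 ± 0.28 (adjusted p = 1.88e-05), Emilin1, a glycoprotein of the elastin surface, at -2.21 ± 0.37, Hspg2, which encodes perlecan, at -1.30 ± 0.31, and Col8a1, a short-chain network collagen, at -3.62 ± 0.80. Of Col8a1, fibroblast-gated cells held 0, 0 and 2 UMIs. Levels of Eln were 16.9, 15.7 and 5.26 in endothelial-gated cells, 3.89, 6.63 and 0.978 in fibroblast-gated cells and 7.56, 20.01 and 8.73 in mural-gated cells. In control replicate 1, where free RNA was lowest, endothelial-gated Eln lay above the mural-gated level, which rested on 15 UMIs in 24 cells. In control replicate 2 and the LPS library the mural-gated level was the higher.

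**Figure D2:**
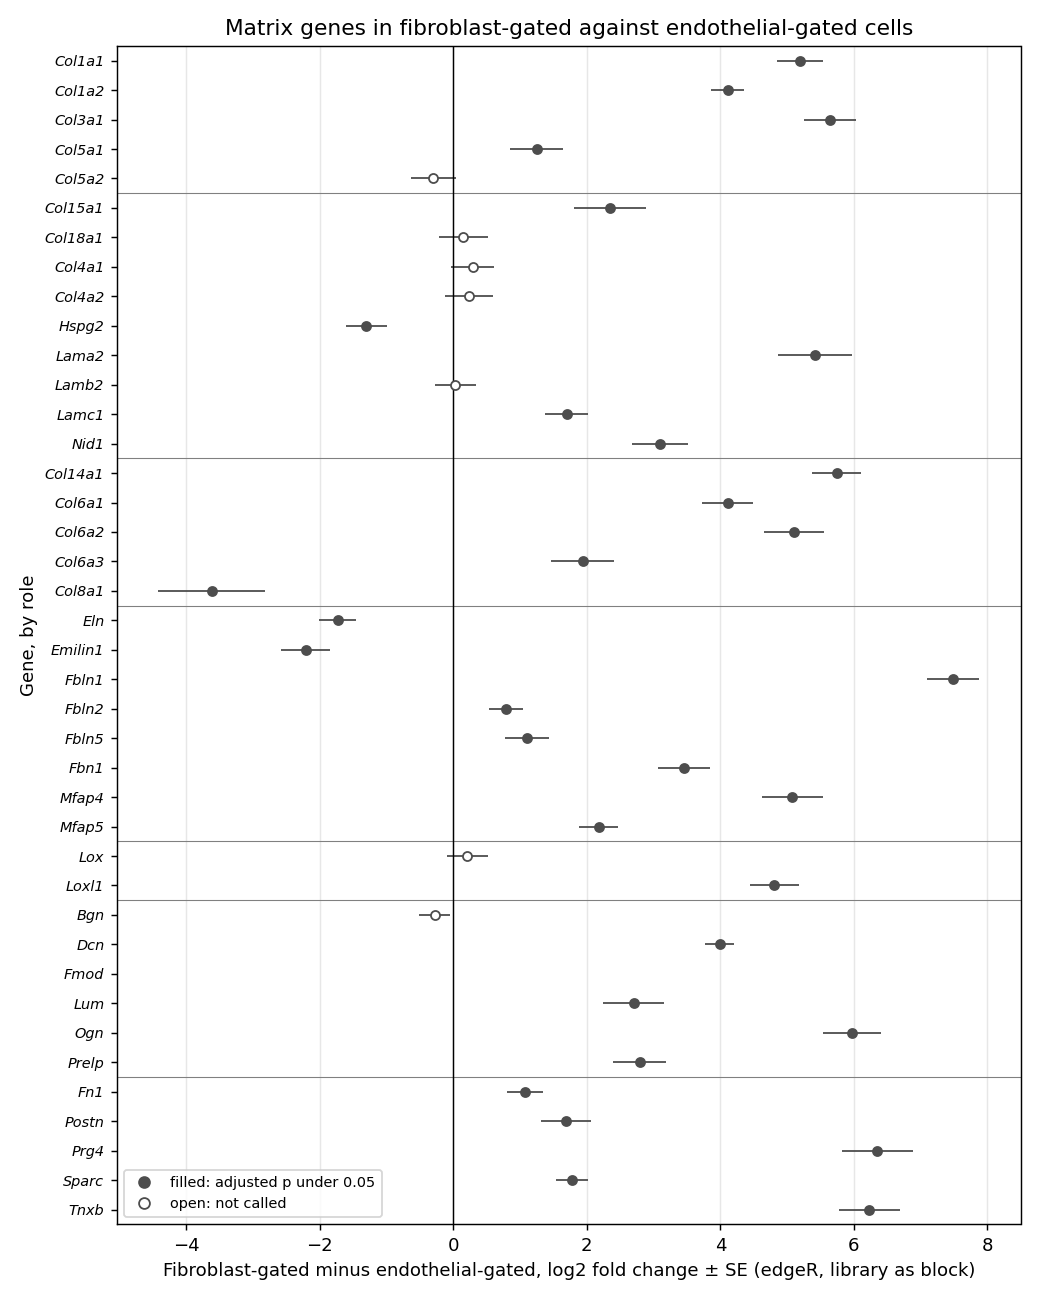
Log2 difference ± SE between fibroblast-gated and endothelial-gated cells for each matrix gene, grouped by role, fitted over both classes of all 3 libraries. Filled points passed an adjusted p of 0.05: 28 lie to the right (higher in fibroblast-gated cells) and 4 to the left.

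The 7 tested members that did not pass between the classes were Col4a1, Col4a2, Col5a2, Col18a1, Lamb2, Lox and Bgn, with log2 differences from -0.30 (Col5a2) to 0.29 (Col4a1). Bgn, the proteoglycan biglycan, was at 13.4, 25.1 and 10.3 in fibroblast-gated cells and 25.1, 33.6 and 10.4 in endothelial-gated cells, with a difference of -0.28 ± 0.23. Fmod, or fibromodulin, was not tested: it had 0, 13 and 0 UMIs in fibroblast-gated cells and none in endothelial-gated cells. The class difference was the most stable result: 25 of the 32 calls were kept by DESeq2, 27 without the 3 deepest cells of each library in each class, and 22 after subtraction of free RNA. All of the 32 that could still be tested kept their sign under each of those alternatives.

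In the LPS library, RNA of 3 of 5 fibrillar collagens and all 4 other collagens tested was lower in fibroblast-gated cells. So was that of 4 of 8 elastic fibre genes and 2 of 5 small leucine-rich proteoglycans. RNA of Col4a1, Col4a2, Lox and Prg4 was higher there. Of 38 members tested, 21 were called (edgeR, adjusted p under 0.05), against 13.8% of all genes. Among them 17 fell, against 5.42% of all genes, and 4 rose, against 8.38%. The median log2 change was -1.17 over the members and 0.03 over all genes, and it was -1.17 also with Col15a1 set to its bound. The 2 members not tested were Col8a1 (0, 0 and 2 UMIs) and Fmod. Of the 17 members that fell, 14 had a level in control replicate 2 at least 3 times that of its lymphoid-gated cells. Eln, Col18a1 and Col15a1 did not. For all 21 called members the LPS level lay outside both controls, and all 21 kept their sign with either control left out, which leaves 1 library a group and no test. These calls rest on few cells: in control replicate 1 the 3 deepest of 21 cells gave 65.2% of class UMIs and 82.5% of matrix UMIs. Without the 3 deepest cells of each library none of 5150 genes passed, with 623 genes and 5 members under an unadjusted p of 0.05, although all 21 members kept their sign. A loss of some fibroblasts and less RNA in each cannot be told apart here. The 15 fibroblast markers of the gate, all detected in every library, summed to 392, 346 and 175 per 10,000 UMIs. Gsn held the largest part, at 188, 198 and 102. Single markers did not all move alike. Clec3b was at 50.6, 38.8 and 8.48 and Abca8a at 10.7, 6.43 and 0.387. Ms4a4d was higher in the LPS library, at 1.17, 1.51 and 5.25. Scara5, at 8.17, 6.39 and 7.19, and Smoc2, at 11.7, 5.48 and 7.51, had LPS values between the controls. Median depth per cell was 1329, 1839 and 3094 UMIs, the median share of Gm42418 29.3%, 2.97% and 28.1% and that of mitochondrial UMIs 5.72%, 12.2% and 3.98%, and their part in the result was not tested.

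**Figure D3:**
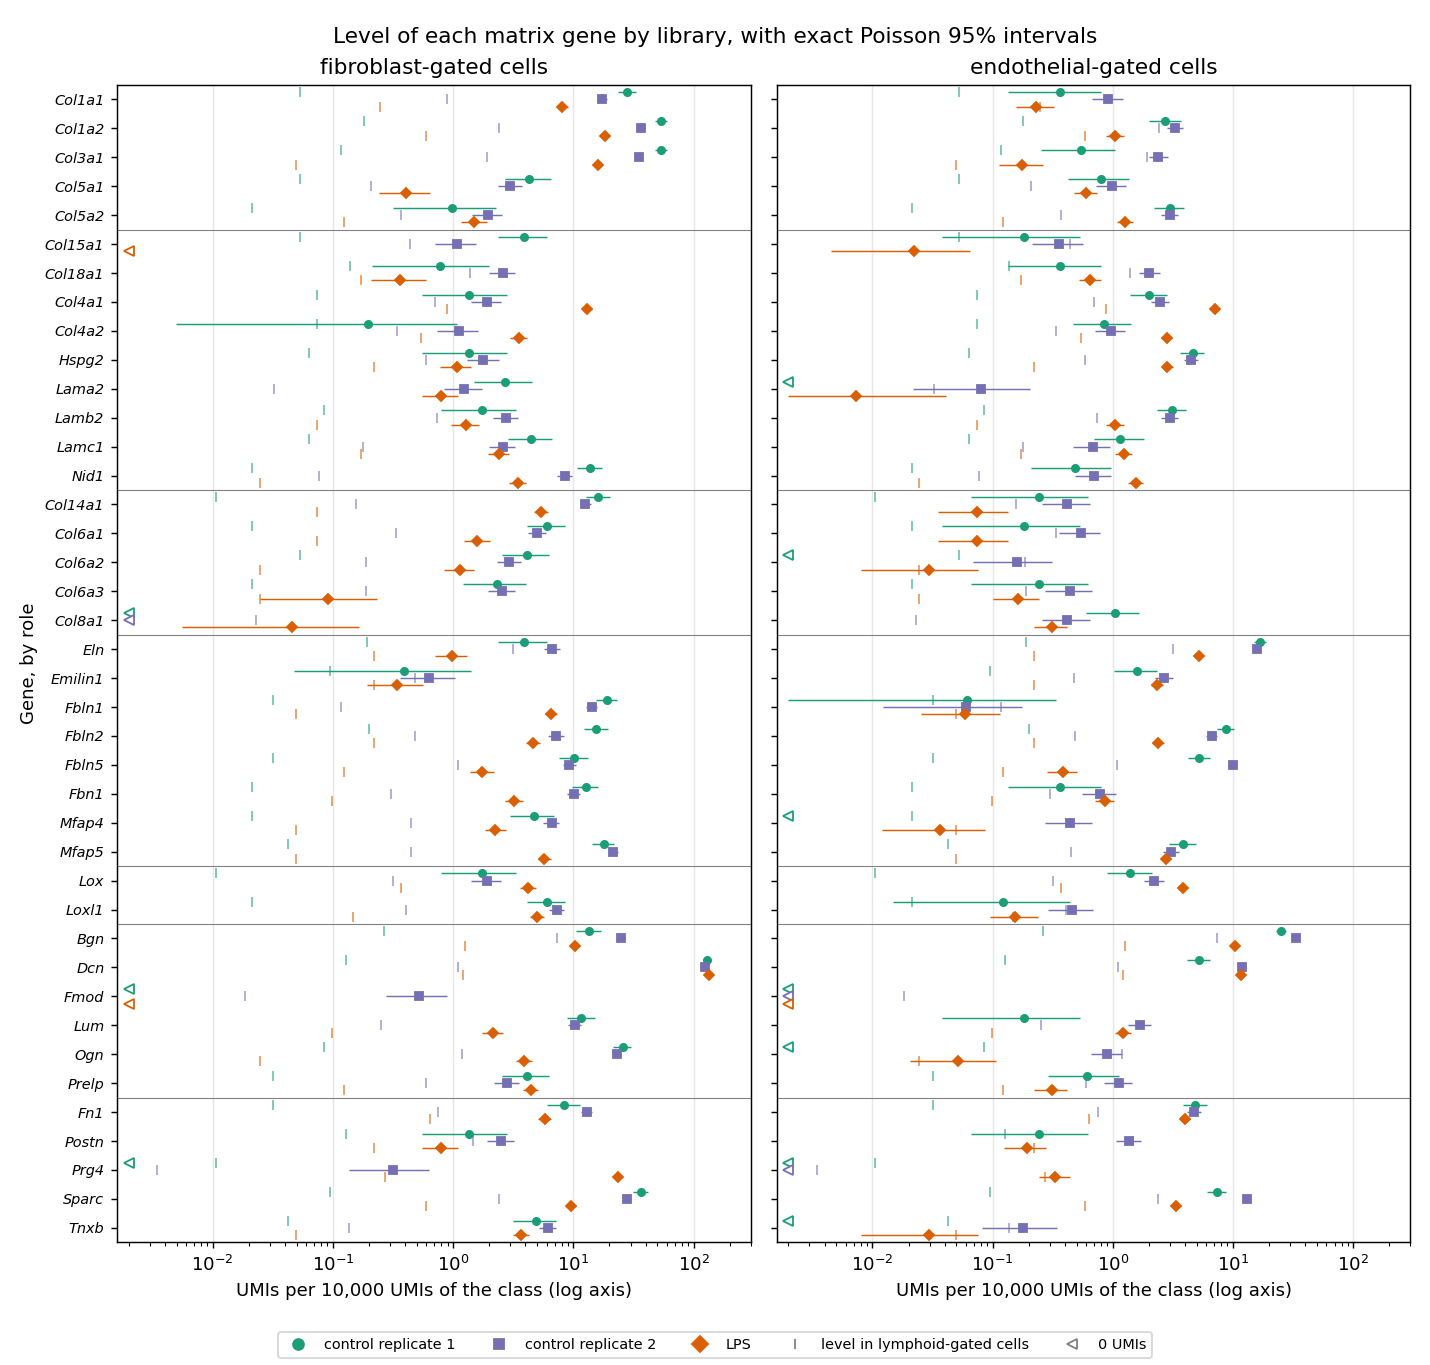
Level of each matrix gene in fibroblast-gated (left) and endothelial-gated cells (right), in UMIs per 10,000 UMIs of the class (log axis), 1 symbol per library with its exact Poisson 95% interval for counting error. Short vertical ticks give the level in lymphoid-gated cells of the same library, and open triangles mark 0 UMIs. Most fibroblast-gated LPS points lie left of both controls, those of Col4a1, Col4a2, Lox and Prg4 lie right of them, and the 3 Dcn points overlap.

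Among fibrillar collagens in fibroblast-gated cells, Col1a1 was at 28.0, 17.3 and 8.12 and Col3a1 at 53.9, 35.5 and 16.2. Both were lower in the LPS library than in either control, each with a log2 change of -1.27 (SE 0.42 and 0.41, adjusted p = 0.0238 and 0.0204). Col1a2, at 53.7, 36.8 and 18.4, had a like change of -1.10 ± 0.41 with an adjusted p of 0.0513, just past the threshold. Col5a1, whose chain starts the assembly of type I fibrils, was at 4.28, 2.98 and 0.409 and fell by 2.89 ± 0.54 on the log2 scale (adjusted p = 2.85e-06). Its partner chain Col5a2 was at 0.972, 1.95 and 1.501, with the LPS value between the controls.

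Type VI collagen forms beaded filaments near cells. Its chains were at 6.03, 5.00 and 1.59 (Col6a1), 4.08, 2.94 and 1.14 (Col6a2) and 2.33, 2.54 and 0.091 (Col6a3). All 3 fell, with log2 changes of -1.59 ± 0.48, -1.38 ± 0.48 and -4.52 ± 0.66. For Col6a3 the counts were 12, 64 and 4 UMIs, and lymphoid-gated cells of the LPS library held it at 0.0246. Col14a1, a fibril-surface collagen, was at 16.1, 12.6 and 5.41 and fell by 1.21 ± 0.44 (adjusted p = 0.0417). All 4 members of this group that were tested fell.

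Basement membrane genes of fibroblast-gated cells moved both ways. Col15a1, a collagen that joins basement membranes to the fibres beneath, had 20 and 27 UMIs in the controls and 0 in the LPS library, which makes it at least 22.7-fold lower against a floor of 3 UMIs over the LPS cells (adjusted p = 2.11e-11). In control replicate 1, 3 of 21 cells gave 19 of its 20 UMIs. In control replicate 2 it was in 20 of 79 fibroblast-gated and 322 of 1661 lymphoid-gated cells, at levels of 1.07 and 0.441. Lymphoid-gated cells of the LPS library held 0 UMIs of it. Col18a1, the source of endostatin, was at 0.778, 2.58 and 0.364 and fell by 2.29 ± 0.53. Nid1, or nidogen, which links laminin to type IV collagen, was at 13.8, 8.46 and 3.46 and fell by 1.47 ± 0.45 (adjusted p = 0.0129). Against these, Col4a1 was at 1.36, 1.91 and 13.1 and Col4a2 at 0.194, 1.11 and 3.53. They rose by 3.1 ± 0.44 (adjusted p = 3.26e-10) and 2.18 ± 0.47 (adjusted p = 7.82e-05). Lama2, Lamb2, Lamc1 and Hspg2 did not pass, with log2 changes from -0.90 to -0.28.

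Col4a1 and Col4a2 lie head to head, and the sequence at their starts is shown because these neighbours rose together in fibroblast-gated and, as given further on, in endothelial-gated cells. On GRCm38 the Col4a1 gene spans chromosome 8 from 11198423 to 11312826 on the minus strand and Col4a2 from 11312805 to 11449287 on the plus strand, so that their first exons overlap by 22 bases (GENCODE M21). The 30 bases at chr8:11312801-11312830, plus strand, from RefSeq's GRCm38.p6 entries, follow with the overlap in capitals, the first capital being the start of Col4a2 and the last that of Col4a1.
Col4a1 and Col4a2 starts: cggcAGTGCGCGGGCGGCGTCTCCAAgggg
The overlap holds 1 copy of GGGCGG, the core of a GC box. Motifs were searched on both strands in the 300 bases around each start. CCAAT was found 1 time in the Col4a1 window, as ATTGG 145 bases before its start, and 1 time in the Col4a2 window, 32 bases before its start. TATAAA was in neither. Of 32851 such windows in mouse, 35.7% hold GGGCGG, 37.4% CCAAT and 13.6% TATAAA, and a match is a description of letters, not of a bound site. RefSeq windows were matched for 27 of the 40 genes, and the levels here come from the 3′ ends of transcripts.

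Elastic fibre genes of fibroblast-gated cells were lower or not called. Eln was at 3.89, 6.63 and 0.978 and fell by 2.31 ± 0.5. Fbln5, a fibulin needed to lay elastin on microfibrils, was at 10.1, 9.29 and 1.75 and fell by 2.28 ± 0.48. Fbn1, or fibrillin-1, was at 12.6, 10.0 and 3.21 and fell by 1.62 ± 0.46. Mfap5, a microfibril-associated glycoprotein, was at 17.9, 21.5 and 5.75 and fell by 1.60 ± 0.43. For all 4 genes both controls lay above the LPS library, and no control level was under 3 times the LPS level. For Eln, lymphoid-gated levels were 0.191, 3.17 and 0.222. In control replicate 2 Eln had UMIs in 60 of 79 fibroblast-gated and 1299 of 1661 lymphoid-gated cells. In control replicate 1, 3 fibroblast-gated cells gave 17 of its 20 UMIs. Fbln1, Fbln2, Mfap4 and Emilin1 were not called, with log2 changes of -1.15, -1.06, -1.18 and -0.58. Of the crosslinking enzymes, Lox was at 1.75, 1.91 and 4.21 and rose by 1.35 ± 0.45 (adjusted p = 0.0234), while Loxl1, at 6.03, 7.26 and 5.00, was not called.

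Among small leucine-rich proteoglycans, Ogn and Lum parted from Dcn. Ogn was at 25.7, 23.1 and 3.87 and fell by 2.47 ± 0.45 (adjusted p = 2.12e-06). Lum, or lumican, was at 11.7, 10.3 and 2.14 and fell by 2.17 ± 0.48. Dcn, which encodes decorin, was at 130, 125 and 134, a change of 0.25 ± 0.38 that did not pass. Dcn took 24.7%, 27.0% and 43.0% of the matrix UMIs of fibroblast-gated cells. Prelp and Bgn were not called, at 0.60 ± 0.45 and -0.76 ± 0.41.

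Among glycoproteins, Sparc, a collagen-binding protein of the cell surroundings, was at 36.4, 28.1 and 9.53 in fibroblast-gated cells and fell by 1.57 ± 0.42 (adjusted p = 0.00298). Prg4, or lubricin, a lubricating proteoglycan known from joint surfaces, was at 0, 0.318 and 23.4 and rose by 6.68 ± 0.54 (adjusted p = 4.47e-32). Its 1030 UMIs in the LPS library came from 41 of 85 cells, and 549 of them from 3 cells, against 6 of 79 in control replicate 2. In lymphoid-gated cells of the LPS library 7 of 69 had a Prg4 UMI, at a median depth of 5918 UMIs against 3094 in fibroblast-gated cells. The 7 mesothelial markers summed to 10 UMIs, or 0.227 per 10,000, in LPS fibroblast-gated cells, against 32.5 in the 24 mesothelial-gated cells, where Prg4 was at 6.87. Fn1, or fibronectin, stood at 8.36, 12.9 and 5.82 and Postn, or periostin, at 1.36, 2.50 and 0.796, and neither was called. The 14 members with at least 100 UMIs that were not called in fibroblast-gated cells had log2 changes between -1.25 (Postn) and 0.60 (Prelp).

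**Figure D4:**
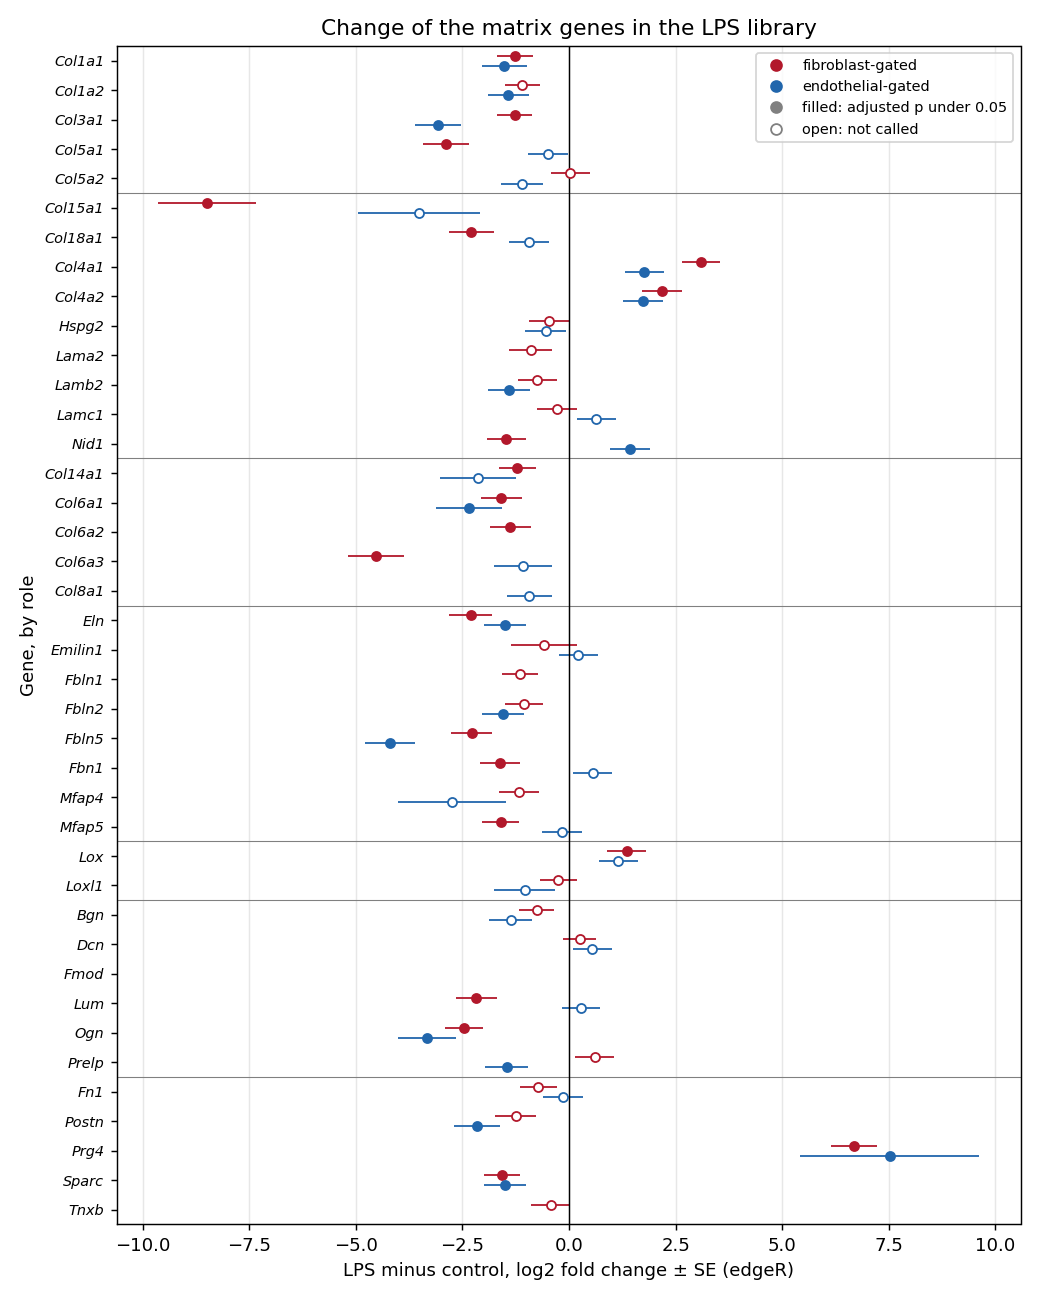
Log2 change ± SE between the LPS library and the controls for each matrix gene in fibroblast-gated (red) and endothelial-gated cells (blue), grouped by role. Filled points passed an adjusted p of 0.05: 17 red and 12 blue lie left of 0, 4 red and 4 blue right of it. The fitted values of Col15a1 in fibroblast-gated and Prg4 in endothelial-gated cells come from a group at 0 UMIs and are no measure of size.

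In endothelial-gated cells of the LPS library, type IV collagen and nidogen RNA was higher, while type I and III collagen, elastin and 2 fibulins were lower. Of 35 members tested, 16 were called, against 11.9% of all genes. Among them 4 rose, against 6.35% of all genes, and 12 fell, against 5.57%. The median log2 change was -1.08 over the members and 0.00 over all genes. Col6a2, Fbln1, Fmod, Tnxb and Lama2 had too few UMIs for the test. Fibroblast markers in these cells summed to 9.14, 9.72 and 2.96 per 10,000 UMIs, with 6, 13 and 13 of 15 detected, and the endothelial markers of the gate to 152.6, 153.5 and 91.5, with 17, 18 and 18 of 18 detected. Their part in the result was not tested. Many of these calls were lost in alternatives. After subtraction of the lymphoid-gated level, Col4a1 and Fbln5 alone of the 16 were still called. Without the 3 deepest cells of each library Fbln5 alone was. Of the 12 members that fell, 5 had a level in control replicate 2 at least 3 times that of its lymphoid-gated cells.

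The type IV chains are the main collagen of the endothelial basement membrane. Col4a1 was at 2.01, 2.48 and 7.14 in endothelial-gated cells, above the lymphoid-gated levels of 0.0742, 0.705 and 0.887 in each library. It rose by 1.77 ± 0.46 (adjusted p = 0.00192) and was called under 10 of 11 alternatives, all with a change of at least 1.73. Col4a2 was at 0.853, 0.96 and 2.81 and rose by 1.73 ± 0.47 (adjusted p = 0.00344, called under 7 of 11). In both genes the counting intervals of the controls overlapped, and that of the LPS library lay above both. Nid1 was at 0.487, 0.70 and 1.55 and rose by 1.43 ± 0.46 (adjusted p = 0.0219, called under 7 of 11). Lamb2, the laminin β2 chain, was at 3.11, 2.98 and 1.05 and fell by 1.41 ± 0.50 (adjusted p = 0.0401). Hspg2 was at 4.63, 4.50 and 2.85, with a change of -0.55 ± 0.48 that did not pass.

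**Figure D5:**
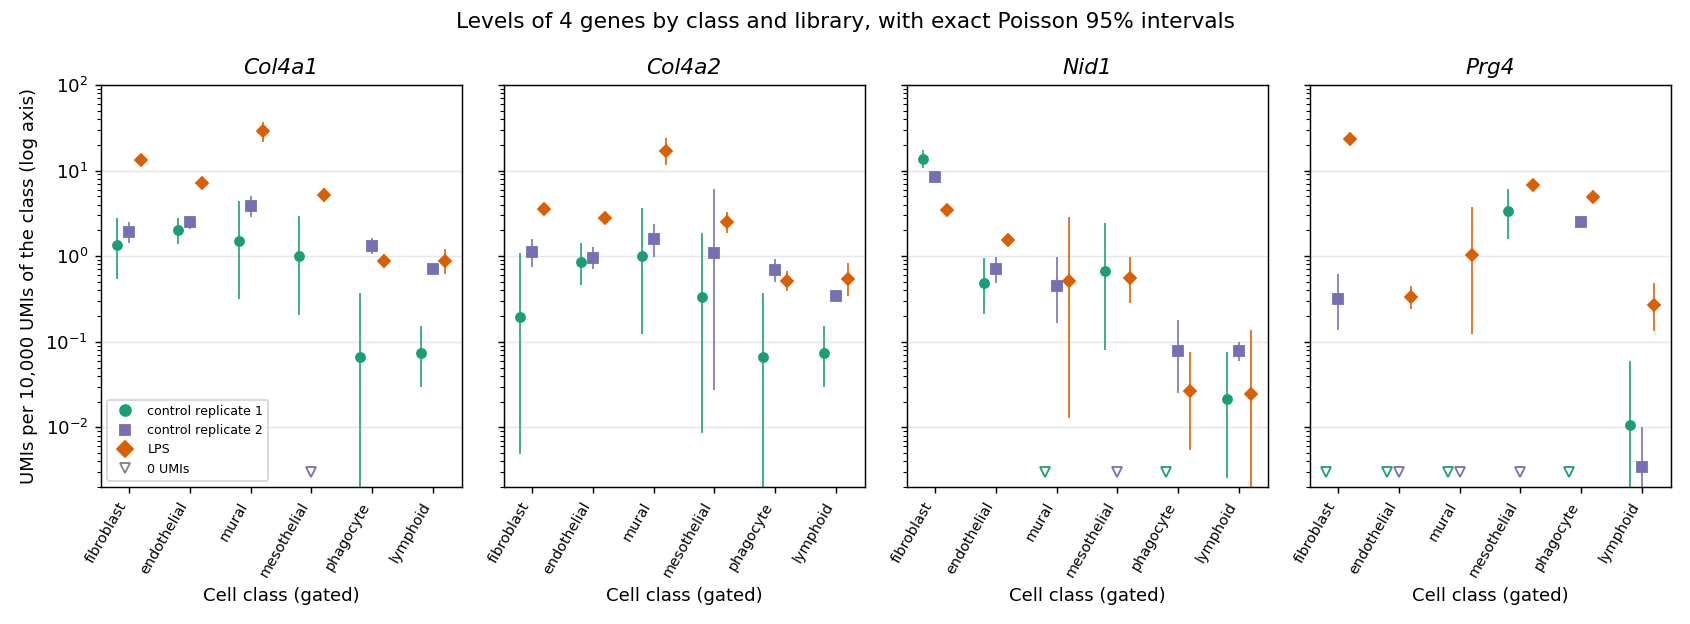
Levels of Col4a1, Col4a2, Nid1 and Prg4 (UMIs per 10,000 UMIs of the class, log axis) in 6 cell classes, 1 symbol per library with its exact Poisson 95% interval, and open triangles at 0 UMIs. LPS points of Col4a1 and Col4a2 lie above both controls in fibroblast-gated, endothelial-gated and mural-gated cells, whereas Nid1 is above them in endothelial-gated and below them in fibroblast-gated cells.

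Mural-gated cells gave values in the same direction for Col4a1 and Col4a2, with no test. Col4a1 was at 1.51, 3.82 and 28.8 and Col4a2 at 1.01, 1.57 and 16.9, from 56 and 33 UMIs in the 7 LPS cells. Lox was at 1.01, 1.499 and 8.73 there. Summed mural markers of these cells were 396, 291 and 67.8 per 10,000, so the 7 LPS cells held less of the markers that define the class. Lymphoid-gated cells gave Col4a1 at 0.0742, 0.705 and 0.887 and edgeR called 0 of 36 members there, with 2 under an unadjusted p of 0.05, against 0.343% of all genes higher and 0.0% lower.

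Of 7 elastic fibre genes tested in endothelial-gated cells, 3 fell. Fbln5 was at 5.24, 9.94 and 0.383 and fell by 4.20 ± 0.59 (adjusted p = 2.21e-10), a call kept under all 11 alternatives. It had UMIs in 15 of 29, 73 of 93 and 27 of 146 endothelial-gated cells, at median depths of 5650, 3827 and 7498 UMIs. In lymphoid-gated cells it had UMIs in 3 of 151, 701 of 1661 and 3 of 69, at median depths of 3961, 4161 and 5918. Eln was at 16.9, 15.7 and 5.26 and fell by 1.5 ± 0.5 (adjusted p = 0.0286). Fbln2 was at 8.71, 6.66 and 2.38 and fell by 1.55 ± 0.50 (adjusted p = 0.022). For all 3 genes both controls lay above the LPS library by more than they differed from each other. Emilin1 was at 1.58, 2.66 and 2.35, Mfap5 at 3.84, 3.06 and 2.77 and Fbn1 at 0.365, 0.78 and 0.863, and none was called. Mfap4, at 0, 0.44 and 0.0369, was not called either.

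Other endothelial-gated calls were at levels nearer to free RNA. Col3a1 was at 0.548, 2.40 and 0.177, beside lymphoid-gated levels of 0.117, 1.92 and 0.0493, and fell by 3.07 ± 0.54 (adjusted p = 7.60e-07). Col1a1 was at 0.365, 0.92 and 0.229 and Col1a2 at 2.74, 3.30 and 1.05, with changes of -1.52 ± 0.53 and -1.42 ± 0.49. Lymphoid-gated levels were 0.053, 0.881 and 0.246 for Col1a1 and 0.18, 2.405 and 0.591 for Col1a2. Col6a1 was at 0.183, 0.54 and 0.0737, Postn at 0.244, 1.36 and 0.192 and Ogn at 0, 0.90 and 0.0516, with changes of -2.35, -2.16 and -3.33. For Ogn the LPS level lay between the controls, and lymphoid-gated cells held 1.19 in control replicate 2, above the endothelial-gated level. Prelp was at 0.609, 1.12 and 0.31 and Sparc at 7.37, 13.0 and 3.35, with changes of -1.46 ± 0.5 and -1.5 ± 0.5. Prg4 had 0, 0 and 45 UMIs, at least 7.35-fold higher against a floor of 3 UMIs over the control cells, but its LPS level of 0.332 was near the 0.271 of lymphoid-gated cells.

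Members not called in endothelial-gated cells included Dcn, at 5.18, 11.9 and 11.7, and Fn1, at 4.87, 4.74 and 4.03. Lox was at 1.40, 2.20 and 3.83, a change of 1.16 ± 0.46 with an adjusted p of 0.0777. Bgn, at 25.1, 33.6 and 10.4, changed by -1.37 ± 0.50 with an adjusted p of 0.0503. The 13 members with at least 100 UMIs that were not called had log2 changes between these values of Bgn and Lox. Dcn took 4.99%, 8.60% and 16.5% of the matrix UMIs in endothelial-gated cells, and Col4a1 took 1.94%, 1.80% and 10.1%.

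The responses of both classes were then compared directly. The change in fibroblast-gated cells minus that in endothelial-gated cells passed for 8 of 39 members, against 0.904% of all genes (interaction of class and treatment, library as block). It was higher for 3, against 0.516% of all genes, and lower for 5, against 0.387%. Nid1, which rose in endothelial-gated and fell in fibroblast-gated cells, differed by -2.74 ± 0.56 (adjusted p = 0.000479). Lum, Col6a3, Col5a1 and Fbn1 were also lower in the fibroblast-gated response, and Col3a1, Fbln5 and Prelp higher. Col4a1 and Col4a2 did not pass this test, so a larger rise in one class than in the other was not shown. DESeq2 called 0 of the 8, as did the fit without the 3 deepest cells of each library, where 4 of 39 members had an unadjusted p under 0.05 in each.

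In mononuclear phagocyte-gated cells matrix RNA was highest in control replicate 2. Of 35 members tested, 15 were called, against 4.84% of all genes, and of these 14 fell, against 2.05%, and 1 rose, against 2.79%. The median log2 change was -2.22 over the members and -0.03 over all genes. Of the 14 members that fell, 1 had a level in control replicate 2 at least 3 times that of its lymphoid-gated cells, and 7 had an LPS level outside both controls. Summed mural markers in phagocyte-gated cells were 4.41, 57.7 and 4.26 per 10,000, beside 2.78, 41.0 and 6.21 in lymphoid-gated cells. Bgn was at 1.34, 10.3 and 0.901, beside 7.31 in lymphoid-gated cells of control replicate 2. Eln was at 0.668, 4.23 and 0.245, beside 3.17 there. Col14a1 was at 0.267, 1.27 and 0.0262, from 4, 82 and 3 UMIs, a control to LPS ratio of 41.2 with a counting interval of 13.6 to 204, and it was the member that stood at 3 times or more the lymphoid-gated level (0.157) in that library. The other 11, Col1a2, Col3a1, Col6a1, Col15a1, Col18a1, Fbln5, Ogn, Prelp, Sparc, Postn and Lamb2, were at 0 to 0.334 in control replicate 1, at 0.557 to 3.79 in control replicate 2 and at 0.0175 to 0.42 in the LPS library. RLE scaling in place of TMM left 0 of 8434 genes called (743 under an unadjusted p of 0.05), and DESeq2 called 62 genes and 0 members, with 6 members under an unadjusted p of 0.05.

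Fn1, a known product of macrophages, took 68.0%, 13.0% and 30.6% of the matrix UMIs of phagocyte-gated cells, at levels of 10.4, 7.52 and 5.60, beside 0.0318, 0.753 and 0.641 in lymphoid-gated cells. It did not change past the threshold (-0.72 ± 0.72), and 3 cells gave 150 of 155, 420 of 486 and 417 of 640 of its UMIs. Prg4, the member that rose, was at 0, 2.52 and 4.86 (1.82 ± 0.58, adjusted p = 0.0387). There 1 cell gave 161 of 163 UMIs in control replicate 2 and 3 cells gave 537 of 556 in the LPS library. These 4 cells also held 9, 6, 1 and 5 UMIs of Gata6, a transcription factor known from macrophages of body cavities, which was looked up after the Prg4 values were seen. They were deep, at 25468, 57977, 35762 and 52958 UMIs, against class medians of 2147 in control replicate 2 and 3162 in the LPS library. Gata6 was not read in the other phagocyte-gated cells, and the identity of these 4 cells was not tested. Of the other members with at least 100 UMIs, Col1a1, Col4a1, Col4a2 and Dcn, none was called.

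Lists of genes that make, hold and sense matrix were read in the same fits. Of all genes, 8.38% rose and 5.42% fell in fibroblast-gated cells, 6.35% and 5.57% in endothelial-gated cells, and 2.79% and 2.05% in phagocyte-gated cells. Between the classes 9.76% were higher in fibroblast-gated cells and 9.89% lower. Counts for all lists below stand beside these shares, and a count near them is no result about a list. No list was tested as a set. Of 40 genes of matrix biosynthesis and crosslinking, 23 were tested in fibroblast-gated cells, where 3 rose and 2 fell with a median change of 0.00, and 26 in endothelial-gated cells, where 1 rose and 3 fell with a median of -0.09. Pcolce2, an enhancer of procollagen processing, fell in fibroblast-gated cells by 2.13 ± 0.47 and in endothelial-gated cells by 2.04 ± 0.51. In fibroblast-gated cells Serpinh1, the collagen chaperone HSP47, fell by 1.57 ± 0.46, while Loxl3, a lysyl oxidase, rose by 3.16 ± 0.58, Tgm2, a transglutaminase, by 1.56 ± 0.47 and Creb3l1, a transcription factor of collagen synthesis, by 1.55 ± 0.55. In endothelial-gated cells Chst11, a chondroitin sulfotransferase, rose by 2.9 ± 0.51, while Pcolce, like Pcolce2 an enhancer of procollagen processing, fell by 2.54 ± 0.72 and P3h3, a prolyl hydroxylase family member, by 1.49 ± 0.5. In phagocyte-gated cells 1 of 19 fell, Serpinh1, by 2.22 ± 0.67, and 0 rose (edgeR). Between the classes, 11 of 26 genes of this list were higher in fibroblast-gated cells and 2 were lower.

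Of 45 other matrix structural genes, 1 rose and 11 fell among 26 tested in fibroblast-gated cells, with a median change of -1.24, and 2 rose and 6 fell among 22 in endothelial-gated cells, with a median of -1.33. Vcan, the large proteoglycan versican, rose in fibroblast-gated, endothelial-gated and phagocyte-gated cells, by 1.7 ± 0.45, 2.14 ± 0.49 and 3.28 ± 0.65, and these calls were kept under 8, 7 and 5 of 11 alternatives. Mfap2, a partner of Mfap5 on microfibrils, fell by 4.89 ± 0.80 in fibroblast-gated cells, Emilin2 by 2.63 ± 0.55 and Thbs2, a thrombospondin, by 2.27 ± 0.63. Ecm2 and Col4a4 fell by 4.22 ± 0.60 and 3.79 ± 0.58 in endothelial-gated cells, both called under 11 of 11 alternatives, and Col4a5, another type IV collagen chain, by 2.15 ± 0.69. Lama5, a laminin chain of the endothelial basement membrane, rose there by 1.35 ± 0.47 (adjusted p = 0.0357, called under 5 of 11 alternatives). In phagocyte-gated cells 2 of 17 rose and 3 fell, with a median change of -1.83: beside Vcan, Thbs1, a thrombospondin, rose by 2.59 ± 0.58, and Ltbp4, Ltbp1 and Npnt fell by 2.94 ± 0.69, 2.42 ± 0.66 and 2.06 ± 0.65. Between the classes 18 of 29 were higher in fibroblast-gated cells and 4 lower.

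The TGF-β pathway, a known inducer of collagen genes, had 1 gene that rose and 1 that fell among 16 tested in fibroblast-gated cells: Ccn2, at 2.32 ± 0.44, and Tgfbi, at -2.32 ± 0.52. In endothelial-gated cells 2 of 19 fell, Tgfb2, a TGF-β ligand, and Smad7, an inhibitor of the pathway, by 1.66 ± 0.52 and 1.46 ± 0.5. The call of Ccn2 was kept under 10 of 11 alternatives. In phagocyte-gated cells 1 of 20 genes of this pathway fell, Ltbp1, which anchors latent TGF-β in the matrix. Among matrix receptors, 1 rose and 3 fell of 16 in fibroblast-gated cells, and 6 rose and 4 fell of 21 in endothelial-gated cells. Sdc4, a heparan sulfate receptor for fibronectin, rose in fibroblast-gated cells by 2.89 ± 0.46 and in endothelial-gated cells by 2.91 ± 0.49. Itgb3, the integrin β3 chain, rose in endothelial-gated cells by 3.83 ± 0.52, a call kept under 11 of 11 alternatives, and Itgb8 by 3.18 ± 0.96. Sdc1, a syndecan, fell there by 3.36 ± 0.63, the integrin chain Itga8 by 2.26 ± 0.52 and Itgb5 by 2.18 ± 0.53. In fibroblast-gated cells Sdc2 fell by 2.1 ± 0.5, Mrc2, a collagen uptake receptor, by 2.08 ± 0.71 and Itgb5 by 1.9 ± 0.51. In phagocyte-gated cells 1 of 17 rose, Sdc4, by 3.16 ± 0.61, and 3 fell, Bcam, Itga8 and Itgb5, by 2.93 ± 0.72, 2.87 ± 0.69 and 2.39 ± 0.67.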

How the data were processed

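Droplet single-cell RNA (10x 3′ v3) was measured in 3 libraries. The deposited values are UMI counts for each gene in each barcode, not normalized. The authors' tools and build were Cell Ranger 3.1, R 4.2.1, Seurat 4.2.0 and mm10, per the submitters' processing notes (annotation release: not given in these sources). Controls are numbered in accession order. The 40 members and the gene lists were chosen with earlier results of these data known.

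Barcodes needed 500 UMIs, 300 genes and no more than 15% of UMIs from mitochondria. A cell passed a gate when at least 6 of 18 endothelial, 3 of 15 fibroblast, 5 of 16 phagocyte, 5 of 15 mural or 8 of 18 lymphoid markers had UMIs and, outside the lymphoid gate, their sum was at least 4 times what free RNA would give plus 1 UMI. These numbers were set on marker counts, without the 40 genes, and the fibroblast number was lowered until each library held 20 cells. Barcodes passing a lymphoid or erythroid gate and another were dropped (4, 32 and 4), and no doublet caller was run.

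Levels leave Gm42418, AY036118, haemoglobin and mitochondrial genes out of the total. Intervals cover counting error only. Counts summed per library and class were tested with edgeR 4.0.16 (quasi-likelihood, TMM, filterByExpr, Benjamini-Hochberg over all genes tested, threshold 0.05) where each library held 20 or more cells of a class. In the LPS comparisons a single residual degree of freedom, between the 2 controls, carries the spread. LPS is assumed to vary like them. edgeR shares the spread over all genes, so p-values mostly measure this shared spread, which may be technical. In endothelial-, fibroblast- and phagocyte-gated cells a gene's own difference between the controls thus had little weight. Ogn in endothelial-gated cells (0, 0.90 and 0.0516) passed edgeR's test with its LPS level between the controls (adjusted p = 4.59e-05). For the difference between fibroblast-gated and endothelial-gated cells, p-values measure how that difference varied between the 3 libraries, LPS included. There too the spread was shared over genes. Alternatives were RLE scaling, no filter, DESeq2 1.42.0, other gates and mitochondrial limits, and free RNA subtracted. Keeping Gm42418-rich barcodes, leaving out the 3 deepest cells and subtraction on the main scaling were added after seeing the data. Named were all called members, and of the other lists, for each class, up to 3 called genes each way with the largest fitted change. The tests were tried on simulated data. A result of the TGF-β list is not reported here.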

Additional observations from a re-analysis of the deposited data

Results flagged for a closer look

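The LPS responses of fibroblast-gated and endothelial-gated cells differed for 8 members by the interaction test in edgeR, and all 8 are given here as values. The difference (fibroblast-gated minus endothelial-gated, log2 ± SE) was 1.82 ± 0.51 for Col3a1 (adjusted p = 0.0449), 1.96 ± 0.54 for Fbln5 (adjusted p = 0.0415) and 2.17 ± 0.58 for Prelp (adjusted p = 0.0304). In Col3a1 and Fbln5 both classes were lower in the LPS library, the endothelial-gated cells by more (-3.07 against -1.27 and -4.20 against -2.28). Prelp fell in endothelial-gated cells (-1.46) and was not called in fibroblast-gated cells (0.60).

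On the other side the difference was -2.31 ± 0.64 for Col5a1 (adjusted p = 0.0387), -3.41 ± 0.92 for Col6a3 (adjusted p = 0.031), -2.11 ± 0.57 for Fbn1 (adjusted p = 0.03), -2.50 ± 0.56 for Lum (adjusted p = 0.00291) and -2.74 ± 0.56 for Nid1 (adjusted p = 0.000479). All 5 fell in fibroblast-gated cells, and in endothelial-gated cells Nid1 rose while the other 4 were not called. Nid1, Lum and Fbn1 were still called under 3 of 7 alternatives, Col6a3 under 2, Col5a1, Fbln5 and Prelp under 1 and Col3a1 under 0, and each kept its sign under all 7.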

How the results depend on the processing

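Counts of called members, rising and falling, moved as follows. In endothelial-gated cells (4 and 12) there were 6 falling without a filter, 1 and 5 with DESeq2, 1 and 1 after either subtraction of free RNA, 0 and 1 without the 3 deepest cells of each library, and 2 falling at a mitochondrial limit of 10%. In fibroblast-gated cells (4 and 17) there were 9 falling without a filter, 2 and 10 with DESeq2, 6 and 8 falling after the 2 subtractions, and 0 and 0 without the 3 deepest cells. In phagocyte-gated cells (1 and 14) there were 0 and 0 with RLE scaling, without a filter and with DESeq2, 0 and 5 or 0 and 4 after subtraction, 0 and 1 with 1 marker more, 0 and 3 at a limit of 10%, and 8 falling with Gm42418-rich barcodes kept. Between the classes 2 of 4 were lower after subtraction. For the difference between responses (3 and 5) there were 0 and 3 without a filter, 1 and 0 or 0 and 0 after subtraction, 0 higher with Gm42418-rich barcodes kept, and 0 and 0 with DESeq2 (4 members under an unadjusted p of 0.05) or without the 3 deepest cells. The cause was not tested, beyond fewer genes or cells entering some fits.

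Counts over all genes moved with them. Endothelial-gated cells had 985 calls, against 254 with DESeq2, 174 without the 3 deepest cells, 441 and 579 after subtraction, and 508 and 1529 at limits of 10% and 25%. Fibroblast-gated cells had 764, against 147 with DESeq2, 444 and 439 after subtraction and 0 without the 3 deepest cells (623 under an unadjusted p of 0.05). Phagocyte-gated cells had 408, against 62 with DESeq2, 111 with 1 marker more, and 0 with RLE scaling or without a filter (743 and 937 under an unadjusted p of 0.05). The class difference had 1414, against 907 with DESeq2 and 562 and 883 after subtraction, and the difference between responses 77, against 1 with DESeq2, 2 without the 3 deepest cells, 46 after subtraction and 51 without a filter.

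Ogn in endothelial-gated cells turned to 4.11 (log2) after subtraction on the main scaling. In phagocyte-gated cells, leaving out control replicate 1 or 2 gave -2.95 or 0.63 for Postn, -2.85 or 1.83 for Col18a1, -2.96 or 5.77 for Sparc and -2.79 or 0.57 for Npnt. No other called gene named here turned its sign. No paired analysis was possible because the labels give no replicate numbers. Single residual degrees of freedom, 21 control fibroblast-gated cells in 1 library and 1 LPS library limit every LPS comparison.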
